A study of Aliger gigas with 7 samples.

Results

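Gene titles of steroid signalling and steroid metabolism were followed in the ovaries of wild queen conchs (Aliger gigas, also known as Strombus gigas), a large marine snail, at 2 sites of the Florida Keys. The set is the 12 titles, of 4328 in the deposited table, whose wording contains estrogen receptor, retinoid X receptor, hydroxysteroid, sulfotransferase or nuclear receptor coactivator. The wording matched 1 estrogen receptor title, 1 coactivator title, 4 hydroxysteroid dehydrogenase titles and 6 sulfotransferase titles, and 0 titles with the words retinoid X receptor. A title is a protein name that the authors attached to a conch sequence, often from a vertebrate. It names a match and not an established conch orthologue, and more than 1 title may stand for the same conch gene.

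All 7 animals were mature adults from the field and received no treatment. The 4 animals of the reference group, OF1 to OF4, were females labelled normal from the offshore site Pelican Shoal, where conchs reproduce normally. The 3 nearshore animals came from Tingler Island, where reproduction is impaired. The labels call NF1 and NF3 normal females, whereas NM3 is given as a female with apparent imposex, that is, with male sexual characters. Each animal's ovary RNA was labelled with the dye Cy3 and measured on an array of its own, so each value is a single measurement per animal, and with 7 arrays precision is limited. Each site was sampled as 1 collection, so site and any handling that went with it cannot be told apart.

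In vertebrates, estrogen receptors are transcription factors that bind estrogen and then recruit coactivators to their target genes. The receptors of several molluscs are known to activate transcription without binding estrogen. Hydroxysteroid dehydrogenases interconvert the active and less active forms of steroids, although several family members mainly act on fatty acids or sterols. Cytosolic sulfotransferases attach a sulfate group to steroids, phenols and thyroid hormones, which makes them soluble and stops most of them from binding their receptors. Imposex, the growth of male organs on female snails, is known above all from organotin compounds, which bind the retinoid X receptor of snails, and altered steroid handling has also been discussed for it.

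Of the 12 titles, the coactivator title fell nearshore and 1 sulfotransferase title rose, and the other 10 did not pass the test. The test was limma's moderated test of nearshore against offshore on the log2 values, with Benjamini-Hochberg adjusted p-values over the 4328 titles and a threshold of 0.05. The share called, 2 of 12 (16.7%), compares with 9.24% of all titles, and a single title more or less moves a share of 12 a long way. At an unadjusted p under 0.05 there were 6 of the 12 titles, against 26.1% of all titles. The values of the 2 sites did not overlap for 3 of the 12, against 24.4% of all titles, so on that count the titles lay at the background. Their median log2 fold change was 0.09, against -0.01 for all titles. The median size of the change, sign ignored, was 1.01 on the log2 scale, against 0.54 for all titles. The spread among offshore animals was also larger, with a median SD of 0.67 against 0.44 for all titles.

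**Figure D1:**
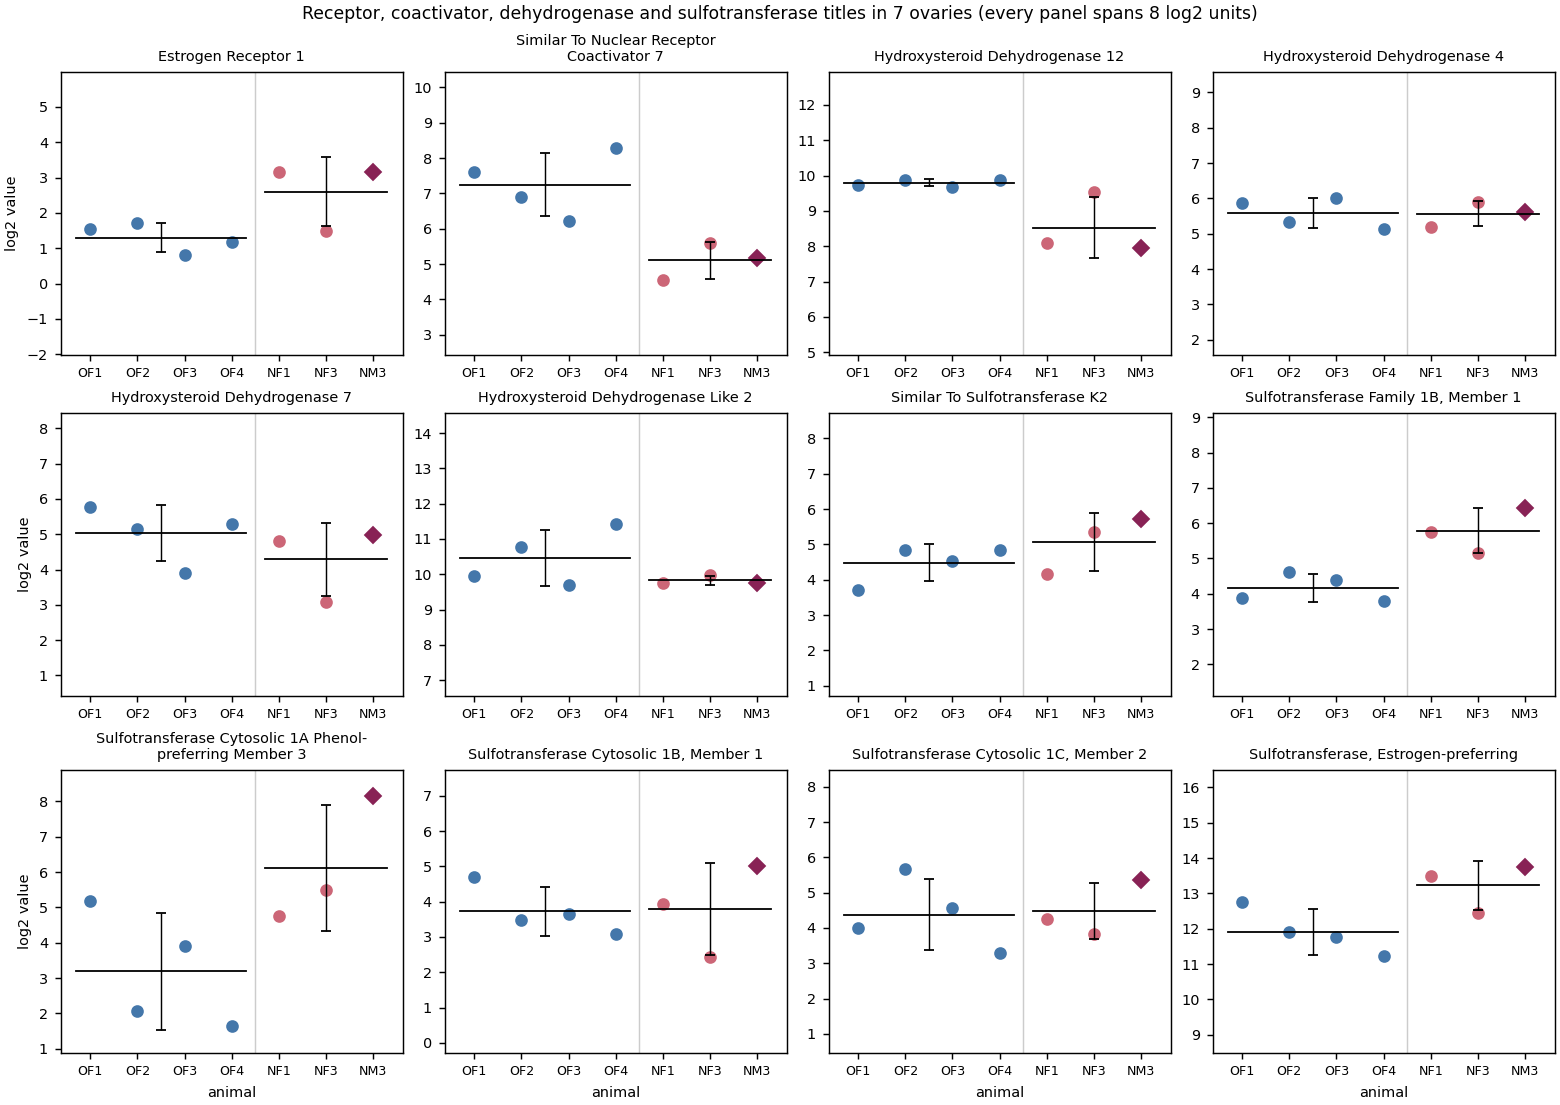
Log2 value of each of the 12 titles (vertical axes, each spanning 8 log2 units) in each animal (horizontal axes), with offshore animals as blue circles, nearshore normal females as pink circles and the imposex animal NM3 as a purple diamond. Black lines are site means and bars are 1 SD (n = 4 offshore, n = 3 nearshore). Similar To Nuclear Receptor Coactivator 7, Sulfotransferase Family 1B, Member 1 and Hydroxysteroid Dehydrogenase 12 show sites without overlap, the last by a gap of only 0.16 and without passing the test. In Estrogen Receptor 1 only NF1 and NM3 stand above the offshore animals.

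The estrogen receptor title was dim and did not pass. Estrogen Receptor 1, named after the vertebrate alpha receptor, had log2 values of 1.54, 1.71, 0.80 and 1.16 in OF1 to OF4, in that order as for every title below. Nearshore it had 3.16 in NF1, 1.49 in NF3 and 3.16 in NM3. NF1 and NM3 thus stood above every offshore animal, and NF3 lay among them. The means were 1.30 ± 0.41 (SD, n = 4) offshore and 2.60 ± 0.97 (n = 3) nearshore. The log2 fold change was 1.30 (SE 0.47, limma adjusted p = 0.134), with a 95% confidence interval from 0.19 to 2.41. Without NF3 the change was 1.86 and passed (adjusted p = 0.0406). In the other 6 fits that left out 1 array it did not pass. The 5 lowest of the 7 values lay below 2.61, the 25th percentile of all values in the table, whose lowest value is 0.27. The table holds no detection calls, so it is not known whether the receptor's transcript was above background in those 5 animals.

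Outside the 12 titles, the titles whose pattern over the 7 animals was most like that of Estrogen Receptor 1 were looked up, so that what they share with it is by choice. Likeness was measured as the root mean square difference after each title was centred on its own mean, over 3092 titles with 7 values and enough spread. The closest were Chromosome 21 Open Reading Frame 127, at 0.26 log2 units, Vesicle Docking Protein P115, a tether of Golgi vesicles, at 0.27, and SH3 Domain Binding Glutamic Acid-rich Protein, at 0.27. None of these 3 passed the site test, with adjusted p from 0.144 for Vesicle Docking Protein P115 to 0.200 for Chromosome 21 Open Reading Frame 127 in limma.

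The coactivator title showed the largest fall of the 12. Similar To Nuclear Receptor Coactivator 7 is named after a vertebrate protein that binds the estrogen receptor and other nuclear receptors and belongs to a family known for protection against oxidative damage. Its log2 values were 7.61, 6.89, 6.21 and 8.30 in OF1 to OF4, against 4.56 in NF1, 5.60 in NF3 and 5.17 in NM3. Every nearshore animal lay below every offshore animal, with a gap of 0.61 between the closest animals, OF3 and NF3. The title fell from 7.25 ± 0.90 (SD, n = 4) to 5.11 ± 0.52 (n = 3), a log2 change by -2.14 (SE 0.52, limma adjusted p = 0.0473), which is a 4.41-fold lower level nearshore if the values are log2. Of all titles, 5.34% fell. The call stood just inside the threshold. It was lost in each of the 7 fits that left out 1 array (adjusted p from 0.0597 to 0.130), while the change itself stayed between -2.49 without OF3 and -1.79 without OF4.

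All 4 hydroxysteroid dehydrogenase titles had lower means nearshore, as did 2189 of all 4328 titles. Hydroxysteroid Dehydrogenase 4, close to 0, turned sign after cyclic loess normalization. Of the 4 titles 0 passed, against 9.24% of all titles. The median log2 fold change of the 4 titles was -0.68. Hydroxysteroid Dehydrogenase 12, whose vertebrate namesake acts in the elongation of fatty acids and can also reduce estrone, was very even offshore, with 9.75, 9.89, 9.68 and 9.87 in OF1 to OF4. Nearshore it had 8.08 in NF1, 9.52 in NF3 and 7.96 in NM3. The sites did not overlap, but NF3 lay only 0.16 below the lowest offshore animal while NF1 and NM3 lay far below. The offshore SD of 0.10 was in the lowest 4.67% of all titles, and the nearshore SD was 0.87. The log2 fold change was -1.28 (SE 0.40, limma adjusted p = 0.0951, 95% confidence interval from -2.21 to -0.34). It was -1.78 without NF3 and then passed (adjusted p = 0.0330), and it did not pass in the 6 other fits without 1 array.

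The remaining dehydrogenase titles overlapped between the sites. Hydroxysteroid Dehydrogenase Like 2, named after a peroxisomal relative of the family, had 9.95, 10.79, 9.70 and 11.42 in OF1 to OF4, against 9.76 in NF1, 9.98 in NF3 and 9.76 in NM3. The nearshore animals were close together and lay within the lower part of the offshore range. The log2 fold change was -0.63 (SE 0.43, limma adjusted p = 0.412), with a 95% interval from -1.65 to 0.38.

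Hydroxysteroid Dehydrogenase 7, named after an enzyme that in vertebrates works in cholesterol synthesis and reduces estrone, had 5.77, 5.15, 3.91 and 5.29 in OF1 to OF4, against 4.81 in NF1, 3.09 in NF3 and 4.97 in NM3. Here NF3 was the lowest animal and NF1 and NM3 lay inside the offshore range, the opposite of the order in Hydroxysteroid Dehydrogenase 12. The log2 fold change was -0.74 (SE 0.60, limma adjusted p = 0.495), with a 95% interval from -2.13 to 0.66. It was -0.14 without NF3 and -1.11 without OF3.

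Hydroxysteroid Dehydrogenase 4, whose vertebrate namesake is an enzyme of fatty acid breakdown in peroxisomes, had 5.87, 5.33, 6.01 and 5.13 in OF1 to OF4, against 5.20 in NF1, 5.89 in NF3 and 5.62 in NM3. All 3 nearshore values lay within the offshore range. The difference in means was -0.01 (SE 0.32, limma adjusted p = 0.991), and its 95% interval ran from -0.75 to 0.73, so changes larger than these bounds lie outside it. Its sign turned under 4 of the 15 alternatives.

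The 6 sulfotransferase titles had higher means nearshore without exception, against 49.4% of all titles with a higher mean, and 1 of 6 rose. The share of all titles that rose was 3.90%. The median log2 fold change of the 6 titles was 0.96. For Sulfotransferase Family, Cytosolic, 1B, Member 1 and Sulfotransferase Family, Cytosolic, 1C, Member 2 the difference was near 0, and its sign turned with array weights and in several fits without 1 array, so the direction over the 6 rests on the other 4 titles.

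Sulfotransferase Family 1B, Member 1 was the title that rose. Its vertebrate namesake sulfates thyroid hormones and small phenols. It had 3.87, 4.63, 4.38 and 3.79 in OF1 to OF4, against 5.76 in NF1, 5.17 in NF3 and 6.44 in NM3. The sites did not overlap, with a gap of 0.54 between OF2 and NF3, and NM3 was the highest animal. The mean rose from 4.17 ± 0.40 (SD, n = 4) to 5.79 ± 0.64 (n = 3), a log2 change by 1.62 (SE 0.38, limma adjusted p = 0.0418), or 3.07-fold if the values are log2. The call held in 1 of the 7 fits that left out 1 array, the one without NF3. In these fits the change ran from 1.30 without NM3 to 1.93 without NF3.

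A second title names the same vertebrate enzyme and did not pass. Sulfotransferase Family, Cytosolic, 1B, Member 1 had 4.70, 3.48, 3.66 and 3.07 in OF1 to OF4, against 3.93 in NF1, 2.44 in NF3 and 5.01 in NM3. The nearshore animals held both the highest and the lowest of the 7 values, and the sites overlapped. The log2 fold change was 0.07 (SE 0.64, limma adjusted p = 0.971), from -0.54 without NM3 to 0.74 without NF3. The first title minus the second was 0.44 ± 0.87 (SD, n = 4) offshore and 1.996 ± 0.665 (n = 3) nearshore. An exact permutation test of that difference over the 35 ways to divide the animals, a test chosen after the values were seen, gave a two-sided p of 0.0571, where the smallest possible is 0.0286. Unequal change of the 2 titles was therefore not shown. How many conch genes the pair represents is not known.

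Sulfotransferase, Estrogen-preferring, named after the vertebrate enzyme that sulfates estrogens at low concentrations, was bright in every animal. It had 12.77, 11.89, 11.76 and 11.22 in OF1 to OF4, against 13.48 in NF1, 12.44 in NF3 and 13.76 in NM3. NM3 and NF1 stood above all offshore animals, and NF3 lay between OF1 and OF2, so the sites overlapped by that single pair. The means were 11.91 ± 0.64 (SD, n = 4) and 13.23 ± 0.70 (n = 3), a log2 change by 1.32 (SE 0.46, limma adjusted p = 0.122, 95% interval from 0.25 to 2.40). It did not pass in any of the 15 alternatives, in which adjusted p ran from 0.0770 to 0.259, and the change ran from 1.05 without NM3 to 1.71 without NF3.

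The title with the widest spread was Sulfotransferase Family, Cytosolic, 1A, Phenol-preferring, Member 3, whose human namesake sulfates dopamine and other catecholamines. It had 5.17, 2.05, 3.92 and 1.63 in OF1 to OF4, against 4.74 in NF1, 5.49 in NF3 and 8.14 in NM3. The offshore animals alone spanned 3.54 on the log2 scale, and OF1 lay above NF1. The difference in means was 2.93, the largest in size among the 12, but with SE 1.09 and an adjusted p of 0.139 in limma it did not pass. It was 1.93 without NM3 and 3.63 without NF1. Its SD over the 7 animals exceeded that of 98.4% of all titles.

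The last pair of sulfotransferase titles did not pass either. Similar To Sulfotransferase K2 had 3.72, 4.84, 4.54 and 4.83 in OF1 to OF4, against 4.15 in NF1, 5.35 in NF3 and 5.72 in NM3, and NF1 lay within the offshore range. Its log2 fold change was 0.59 (SE 0.46, limma adjusted p = 0.474, 95% interval from -0.48 to 1.66), and it was 0.27 without NM3 and 1.05 without NF1. Sulfotransferase Family, Cytosolic, 1C, Member 2 had 3.99, 5.66, 4.58 and 3.28 in OF1 to OF4, against 4.24 in NF1, 3.84 in NF3 and 5.36 in NM3. All 3 nearshore animals lay within the offshore range of that title, and its log2 fold change was 0.10 (SE 0.61, limma adjusted p = 0.944). Sult2b1-prov Protein, which the wording rule did not take and which was looked up after the values were seen, differed by -0.43 between the sites (limma adjusted p = 0.542).

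**Figure D2:**
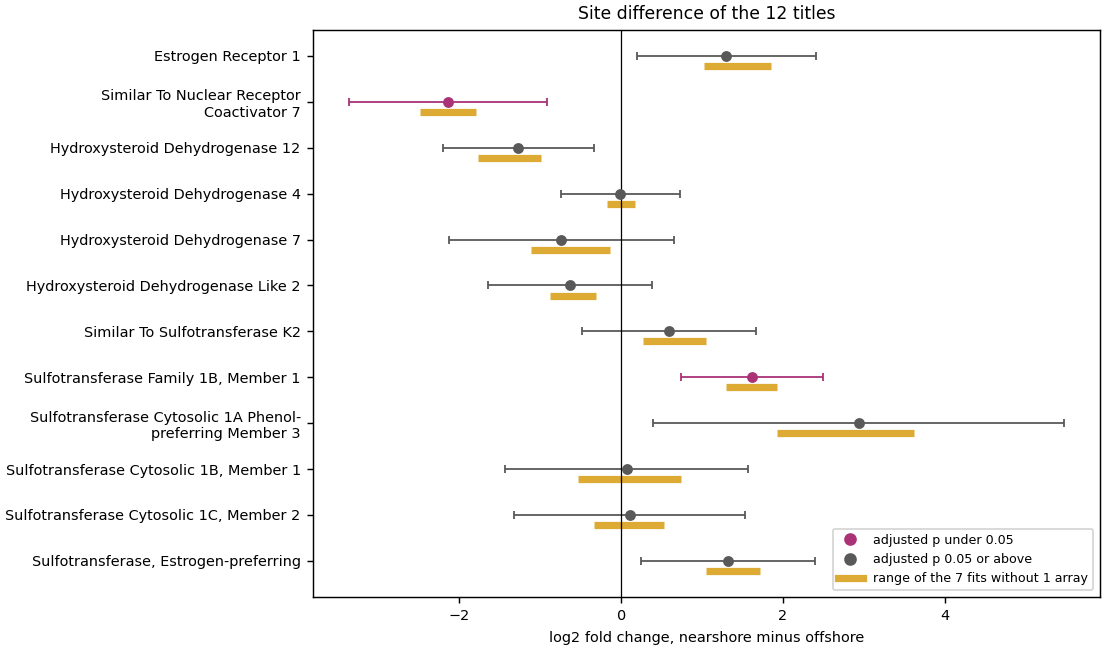
Log2 fold change of each of the 12 titles, nearshore minus offshore (horizontal axis), with its 95% confidence interval from limma as a thin line. The thick yellow bar is the range of the 7 fits that each left out 1 array. The coactivator title at -2.14 and Sulfotransferase Family 1B, Member 1 at 1.62 are the pair that passed, and the 4 dehydrogenase titles lie at or left of 0 while the 6 sulfotransferase titles lie at or right of it, with bars that cross 0 for Hydroxysteroid Dehydrogenase 4 (which turned sign after cyclic loess) and for the cytosolic 1B and 1C titles.

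The animals within a site differed as much as the sites did for several titles. NM3, the imposex animal, had the highest value of all 7 animals in 5 of the 6 sulfotransferase titles, and in 16.5% of all titles with 7 values. In 6 of 6 it stood above both nearshore normal females, as it did in 34.3% of all titles. Over the 6 titles the median excess over the offshore mean was 1.57 in NM3, 0.88 in NF1 and 0.70 in NF3. With 1 imposex animal this difference has no replicate and was not tested. The array of NM3 also stood apart: it had the lowest of the 7 array weights in limma, 0.523 against 0.814 to 2.06, and held 45 of the 53 missing values. Scatter about the site mean lowers such a weight. Array quality and a real difference of NM3 from NF1 and NF3 therefore cannot be told apart in it. NM3 was the lowest animal in 20.3% of all titles with 7 values. The part of array quality in its values was not tested. In the other direction OF4 held the lowest value in 4 of the 6, with a median of -0.67 against the offshore mean. The dehydrogenase titles did not set NM3 apart, with medians of -0.38 in NM3, -0.38 in NF3 and -0.54 in NF1, next to -0.44 in OF3. In Estrogen Receptor 1 and Sulfotransferase, Estrogen-preferring it was NF1 together with NM3 that stood apart from the offshore animals. In Hydroxysteroid Dehydrogenase 12 all 3 nearshore animals lay below the offshore animals, NF3 by only 0.16 and NF1 and NM3 by far more. The normal female NF1 thus went with the imposex animal in these titles.

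Titles of other tissues also varied between the animals, and some sulfotransferase titles shared, within a site, an order of the animals with a digestive title. Among 17 titles matched by digestive gland wording Carboxypeptidase A1 rose and Serine Carboxypeptidase 1 fell, where 3.90% of all titles rose and 5.34% fell. The letters of amylase also caught Carbamoyl-phosphate Synthetase 2, Aspartate Transcarbamylase, And Dihydroorotase, an enzyme of pyrimidine synthesis, which did not pass. The log2 of the list's summed level ranged from 8.43 to 14.21 offshore and from 9.37 to 12.26 nearshore. Most of that range came from 1 title, Amylase, Alpha 1A; Salivary, a starch-digesting enzyme, with 14.12, 5.83, 12.70 and 4.81 in OF1 to OF4, against 9.16 in NF1, 5.19 in NF3 and 11.80 in NM3. Within the offshore site, OF1, OF3, OF2 and OF4 followed in this order both in Amylase, Alpha 1A; Salivary and in the phenol-preferring and cytosolic 1B sulfotransferase titles. Nearshore, NM3, NF1 and NF3 followed in this order in the amylase title and in the cytosolic 1B, cytosolic 1C and estrogen-preferring sulfotransferase titles. Sulfotransferase Family 1B, Member 1, the title that rose, also had this nearshore order. The phenol-preferring and Similar To Sulfotransferase K2 titles did not, as NF3 stood above NF1 in both. Offshore, the estrogen-preferring title ran in the order OF1, OF2, OF3 and OF4, unlike the amylase title. Similar To Sulfotransferase K2 was lowest in OF1, at 3.72, where the amylase title was highest. The amylase title did not pass (log2 fold change -0.64, SE 2.65, limma adjusted p = 0.912). In Sulfotransferase Family 1B, Member 1 and in the cytosolic 1C title the offshore order was OF2, OF3, OF1 and OF4, unlike that of the amylase title. The amylase title was picked after its values were seen. How many of all titles share these orders was not counted, but NM3 stood above both NF1 and NF3 in 34.3% of all titles. In bulk tissue, fewer cells of a type and less RNA per cell cannot be told apart, and the part of digestive tissue in the sulfotransferase values was not tested.

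The summed level of the muscle titles was higher nearshore, and ovary titles varied between animals. In the muscle list 2 of 7 titles rose, Tropomyosin 1 and ENSANGP00000023757 / Myosin Light Chain, and 0 fell, where 3.90% of all titles rose. Of the other 5, which did not pass, Myosin Heavy Chain and Myosin Light Chain Cytoplasmic had lower means nearshore, by -0.80 and -1.16. The log2 of the summed level was 8.29 to 9.64 offshore and 10.61 to 11.76 nearshore, without overlap. It was highest in NF1 and not in NM3. Of 4 haemocyte titles Fibrinogen C Domain Containing 1 rose and the other 3 did not pass, where 3.90% of all titles rose. The summed level of the haemocyte titles was 14.17 to 17.13 offshore and 14.92 to 16.95 nearshore. Of 26 titles matched by testis wording 2 rose and 3 fell, where 3.90% and 5.34% of all titles did. The wording also caught Spermidine/spermine N1-acetyltransferase 2 and Spermine Oxidase, enzymes of polyamine metabolism, and 1 of the 3 that fell, Nuclear Autoantigenic Sperm Protein, which chaperones histones in many cell types. Without these 3 titles, set aside by name after the matches were seen, 2 of 23 rose and 2 fell, and the summed level was 12.08 to 13.01 offshore and 12.54 to 12.97 nearshore. Of 17 titles matched by nerve wording 1, Synaptotagmin XV, rose and 1, Neugrin, Neurite Outgrowth Associated, fell, where 3.90% and 5.34% of all titles did. The other 15 did not pass. They included Synaptonemal Complex Protein 3, a meiosis protein, and the title of Neural Precursor Cell Expressed, Developmentally Down-regulated 8, a ubiquitin-like protein of most cells, and without these the summed level was 9.65 to 10.53 offshore and 10.05 to 10.98 nearshore. In the ovary list 0 of 5 titles passed, against 9.24% of all titles. Vitellogenin 2, the yolk precursor, had 16.81 to 17.34 offshore, 17.03 in NF3, 16.35 in NM3 and 12.69 in NF1, and Piwi-like 1, a germ cell protein, had 14.19 to 15.06 offshore and 11.55 to 13.47 nearshore. NF1 was thus lowest in both. The part of muscle, oocyte content or other tissues in the values of the 12 titles was not tested.

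**Figure D3:**
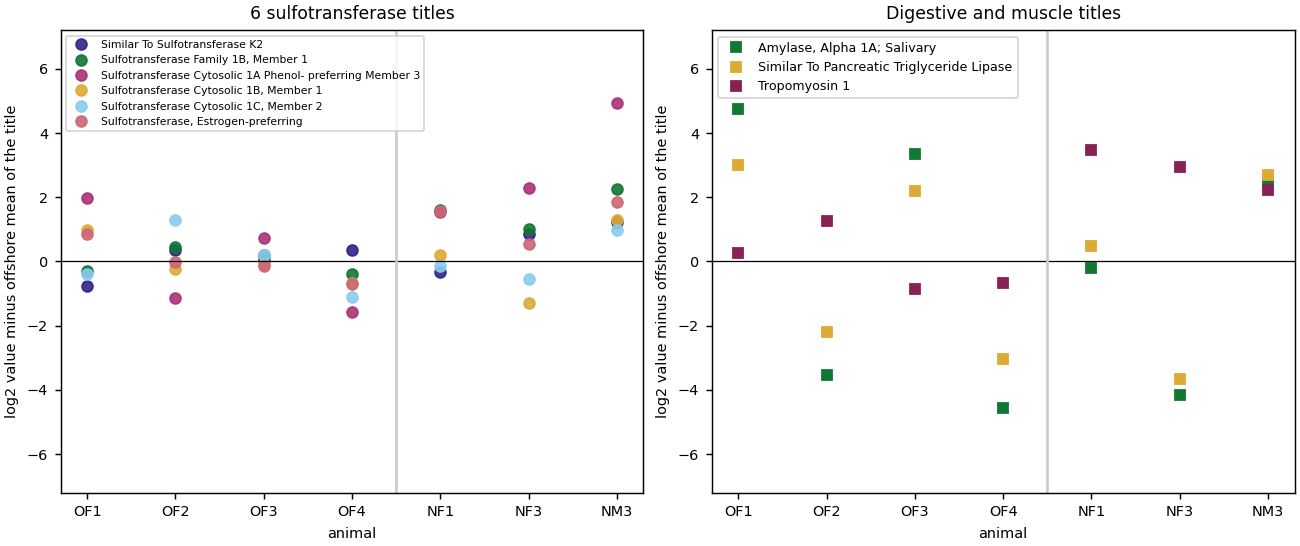
Log2 value minus the title's own offshore mean (vertical axes) in each animal (horizontal axes), for the 6 sulfotransferase titles on the left and for 2 digestive titles and 1 muscle title on the right. The amylase and lipase titles are high in OF1, OF3 and NM3 whatever the site. These 2 titles were picked from the 17 of the digestive list after their values were seen, and other titles of that list differ. Chymotrypsin-like, not plotted, was lowest within its site in OF3 (0.51) and NM3 (1.27), and Carboxypeptidase A1 was high in all 3 nearshore animals. Tropomyosin 1, 1 of the 2 titles that rose among the 7 of the muscle list, is high in all 3 nearshore animals. The phenol-preferring sulfotransferase title reaches its top, 4.95 above the offshore mean, in NM3.

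Of the 11 other titles matched by retinoid, aldehyde dehydrogenase 1 and short-chain dehydrogenase wording, 1 rose and 3 fell, where 3.90% of all titles rose and 5.34% fell, and the list's median was 0.00. The list was chosen with earlier results of these data known, and its short-chain dehydrogenase titles name no retinoid substrate. Aldehyde Dehydrogenase 1 Family, Member A2, named after the enzyme that makes retinoic acid, the ligand of retinoid receptors, had 9.22, 8.07, 8.46 and 8.52 in OF1 to OF4, against 10.30 in NF1, 10.71 in NF3 and 10.37 in NM3. Aldehyde Dehydrogenase 1 Family, Member A2 was higher in every nearshore animal than in any offshore animal and rose by 1.89 (SE 0.32, limma adjusted p = 0.0196), passing in 3 of the 7 fits without 1 array. Its relative Aldehyde Dehydrogenase 1 Family, Member A1 had a log2 fold change of 2.16, with 6.19 to 7.69 offshore and 8.17 to 10.30 nearshore, and did not pass (adjusted p = 0.0629).

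The 3 falls of that list were in titles with less certain roles. Similar To Stimulated By Retinoic Acid 13 had 7.10, 7.16, 8.03 and 8.55 in OF1 to OF4, against 5.33 in NF1, 4.84 in NF3 and 4.84 in NM3. It fell by 2.71 on the log2 scale (SE 0.41, limma adjusted p = 0.0173) and passed in 6 of the 7 fits without 1 array, all but the one without OF3. The title Stimulated By Retinoic Acid 13, without the words Similar To, differed by -0.14 (adjusted p = 0.852). Short-chain Dehydrogenase/reductase, a family name that gives no substrate, fell by 2.07 (SE 0.33) and passed in 4 of these 7 fits. Similar To Retinoic Acid Induced 16 fell by 1.37 (SE 0.25) and passed in 2, and it did not pass when the prior of the limma fit was mean-dependent and robust (adjusted p = 0.0642). It was dim, with 3.37 to 3.62 offshore and 1.84 to 2.54 nearshore. The nearshore values lay below 2.61, the 25th percentile of all values. Retinol Dehydrogenase 11, an enzyme that interconverts retinol and retinal, differed by -0.11 (adjusted p = 0.903).

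**Figure D4:**
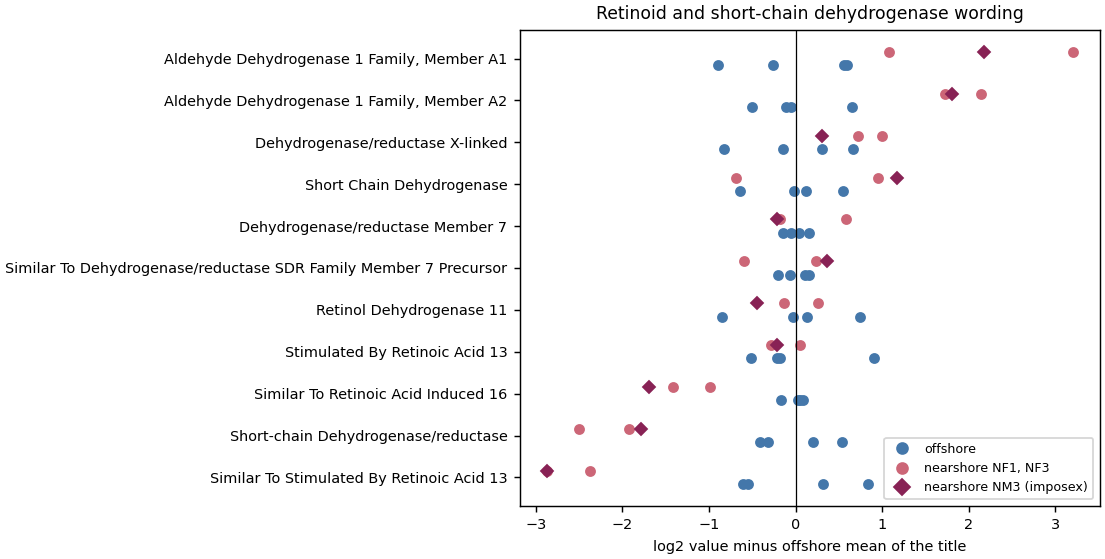
Log2 value minus the title's offshore mean (horizontal axis) for the 11 titles of retinoid, aldehyde dehydrogenase 1 and short-chain dehydrogenase wording (rows), with blue circles for offshore animals, pink circles for nearshore normal females and purple diamonds for NM3. The nearshore animals lie right of the offshore animals in both aldehyde dehydrogenase titles and left of them in the 3 titles that fell.

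In the list of other nuclear receptors and coregulators, 0 of 22 titles changed in limma, against 9.24% of all titles. In that list 2 titles had an unadjusted p under 0.05, against 26.1% of all titles. The letters COUP of that list caught 12 titles with coupled or uncoupling in the name, and without them 0 of 10 titles changed and 0 had an unadjusted p under 0.05. Nuclear Receptor Subfamily 1, Group H, Member 3, an oxysterol receptor in vertebrates, had a difference of -0.0046 (SE 0.51, limma adjusted p = 0.998), and Nuclear Hormone Receptor Family one of 0.37 (SE 0.65, adjusted p = 0.780), with 9.70 in NF1 and 6.92 to 8.06 in the other 6 animals. Of 11 titles of sterol and steroid synthesis and transport, 0 changed in limma, against 9.24% of all titles, with a median of -0.56. Oxysterol Binding Protein-like 10 and Oxysterol Binding Protein-like 6, named after sterol carriers, had an unadjusted p under 0.05, with differences of -1.43 and -1.23. Steroid 5 Alpha-reductase 1, which in vertebrates makes the more potent androgen from testosterone, had 5.57, 5.39, 4.90 and 5.50 in OF1 to OF4, against 4.98 in NF1, 4.58 in NF3 and 1.19 in NM3. The imposex animal alone was far below the other 6 in Steroid 5 Alpha-reductase 1, which did not pass (log2 fold change -1.75, limma adjusted p = 0.251) and was singled out after its values were seen. NM3 is also the animal with the lowest array weight, which does not separate array quality from a real difference. A low value in NM3 alone was not particular to that title. Similar To P23-like Protein, a receptor chaperone title, had 3.53 in NM3 against 8.98 to 10.32 in the other 6 animals. CREB Regulated Transcription Coactivator 1, of the coregulator list, had 0.80 in NM3 against 3.23 to 5.10 in the other 6.

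The title of the sulfate donor's synthase did not pass, and 1 receptor chaperone title rose. Of 8 titles matched by sulfate and sulfatase wording, 0 changed in limma, against 9.24% of all titles. An unadjusted p under 0.05, which 26.1% of all titles had, was found for 1, SULfate Permease Family. That title and Chondroitin Sulfate Proteoglycan 3 and 6 name neither an enzyme that makes the donor nor one that removes sulfate, and of the other 5 titles 0 had an unadjusted p under 0.05. The synthase of the sulfate donor used by all sulfotransferases, 3'-phosphoadenosine 5'-phosphosulfate Synthase 2, differed by -0.01 (SE 0.56, adjusted p = 0.994), with NM3 highest at 5.12 and OF1 lowest at 2.98. Of 10 receptor chaperone titles 1 rose and 0 fell, where 3.90% and 5.34% of all titles did. Similar To Stress-induced-phosphoprotein 1, a cochaperone that links the chaperones of steroid receptors, had 6.89 to 7.72 offshore and 8.64 to 9.43 nearshore, without overlap. Similar To Stress-induced-phosphoprotein 1 rose by 1.91 (SE 0.31, limma adjusted p = 0.0184) and passed in 4 of the 7 fits without 1 array.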

How the data were processed

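Ovary RNA of 7 animals was hybridised to single-colour arrays. Per the submitters' processing notes, Agilent Feature Extraction was used. For each array, the deposited table gives a value on a log scale for each gene title. The log base is not stated and was read as 2 from the range of 0.27 to 17.53. The arrays' mean values, 5.83 to 5.89, are nearly equal, so the deposited log2 values were taken as already normalized by the authors. The sources used here do not give the treatment of background or the condensing of probes to titles. All 12 titles have 7 values, and 53 of 4328 titles lack 1 and were fitted on the values present. No filter was applied.

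Each title was fitted with limma 3.58.1 in R 4.3.3 (lmFit, eBayes, group as the only term, two-sided), with Benjamini-Hochberg adjustment over 4328 titles. Calls need an adjusted p under 0.05, and SE is moderated. The fit was also run on simulated data with independent noise, as a check of the code. That run does not bear on the calls reported here. The 12 titles and all lists were chosen with earlier results of these data known. Every one of the 12 was to be named, with changed titles of each related list, at most 4 by smallest p, and the 3 titles most like the receptor title. Other titles named in the lists and tissue markers were picked after their values were seen. The alternatives were quantile, median and cyclic loess normalization, array weights, dropping the dimmest 25% of titles, a mean-dependent robust prior, an ordinary pooled-variance test, complete titles only, and leaving out each array.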

Additional observations from a re-analysis of the deposited data

How the results depend on the processing

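The calls among the 12 titles lay near the threshold. The number of titles that fell, 1, was 0 with array weights (adjusted p of Similar To Nuclear Receptor Coactivator 7 = 0.0997, limma), 0 with the ordinary pooled-variance test (0.118), and 0 to 1 when 1 array was left out, where the 1 was Hydroxysteroid Dehydrogenase 12 without NF3. The number that rose, 1, was 0 with the ordinary pooled-variance test (Sulfotransferase Family 1B, Member 1, adjusted p = 0.0911) and 0 to 2 when 1 array was left out, with 2 only without NF3. All 400 changed titles became 143 with the ordinary test, and 34 (without OF4) to 302 (without NM3) when 1 array was left out, with 42 without OF3 and 116 to 206 without any other. Leaving out an array also leaves fewer degrees of freedom.

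A few differences near 0 turned sign. Hydroxysteroid Dehydrogenase 4 had 0.0027 after cyclic loess and -0.17 to 0.17 without 1 array. Sulfotransferase Family, Cytosolic, 1B, Member 1 had -0.083 with array weights and -0.54 to 0.74 without 1 array. Sulfotransferase Family, Cytosolic, 1C, Member 2 had -0.012 with array weights and -0.34 to 0.53 without 1 array. The cause was not tested. The other 9 titles kept their sign in every alternative run. The median of the 12 was -0.04 with array weights and ran from -0.19 (without NM3) to 0.44 (without NF3). Estrogen Receptor 1 was removed by the filter on low means. No paired analysis was possible because the animals' codes number different animals within each site. Signal over background is not known, so low values are the least certain.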
